A study of Bos grunniens and Bos grunniens x Bos taurus with 6 samples.

Results

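The 7 genes that encode the subunits of AMP-activated protein kinase (AMPK), PRKAA1, PRKAA2, PRKAB1, PRKAB2, PRKAG1, PRKAG2 and PRKAG3, were followed in back muscle of cattle-yak and of yak. They were chosen by name. For each, the gene identifier with the most reads in rows carrying that symbol was taken, and all transcripts of that identifier were summed in each library. This gave 7 of the 31044 genes in the deposited table, with 95 transcripts and 3142 reads over all libraries, of which 1772 reads lay in transcripts that carried the subunit's own symbol. PRKAB2, the beta-2 scaffold, was the only subunit gene that passed the test, at a fold of 0.468 in cattle-yak over yak. PRKAG3, the gamma-3 subunit, had a fold of 0.499 and missed the threshold.

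AMPK is a kinase of 3 chains that reads the energy state of the cell. The catalytic alpha chain is switched on when an upstream kinase, chiefly LKB1 (gene STK11), phosphorylates its activation loop, and the gamma chain binds AMP, ADP and ATP in its CBS repeats and so ties that switch to the nucleotide balance. The beta chain holds the complex together and carries a carbohydrate-binding module through which AMPK associates with glycogen. Each chain has isoforms from separate genes. In skeletal muscle of mouse and human, alpha-2 and beta-2 predominate, and gamma-3 is found mainly in fast, glycolytic fibres. In pigs, an amino acid substitution in PRKAG3 raises muscle glycogen and affects meat quality.

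The muscle was longissimus dorsi, which runs along the back. The series holds 3 samples of cattle-yak, the hybrid of yak (Bos grunniens) and cattle (Bos taurus), and 3 samples of yak. RNA was extracted with TRIzol and converted to cDNA-PCR libraries for nanopore sequencing, in which a read follows a whole cDNA. The sources used here do not give sex, age or the direction of the hybrid cross. They also do not say whether samples of 1 group were taken from different animals. The p-values thus set group differences against the spread of these samples only. Some of that spread may be technical, and it may not hold differences between animals.

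The libraries held 2350851 to 2769106 counted reads. The 7 skeletal muscle fibre markers were all detected, with summed levels of 120637 to 137911 CPM in cattle-yak and 176721 to 196312 CPM in yak, which fits the labelled tissue. Levels are CPM, reads scaled to a common library size, after TMM scaling, which corrects for differences in library composition, and they are not divided by transcript length. Of 7504 genes that passed the filter on low counts, 948 (12.6%) had an edgeR adjusted p under 0.05, 464 of them lower in cattle-yak and 484 higher. In bulk muscle, fewer cells of a type and less RNA per cell cannot be told apart.

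Of the 7 subunit genes, 6 passed the low count filter and PRKAG2 did not. By edgeR's quasi-likelihood test 1 of the 6 fell (PRKAB2) and 0 rose, against 6.18% and 6.45% of all tested genes. At an unadjusted p under 0.05 there were 3 (PRKAA2, PRKAB2 and PRKAG3), where 27.9% of all tested genes reached that level. The log2 fold change was negative for 5 of the 6, against 48.1% of all tested genes. Every cattle-yak library lay below every yak library for 2 of them, PRKAA2 and PRKAB2, an arrangement found in 16.1% of tested genes. The only positive log2 fold change was that of the PRKAB1 identifier, in which 4.15% of reads carried PRKAB1 and the others TMEM233. Its transcripts with the symbol PRKAB1 had a log2 fold change of 0.54, also not called.

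**Figure D1:**
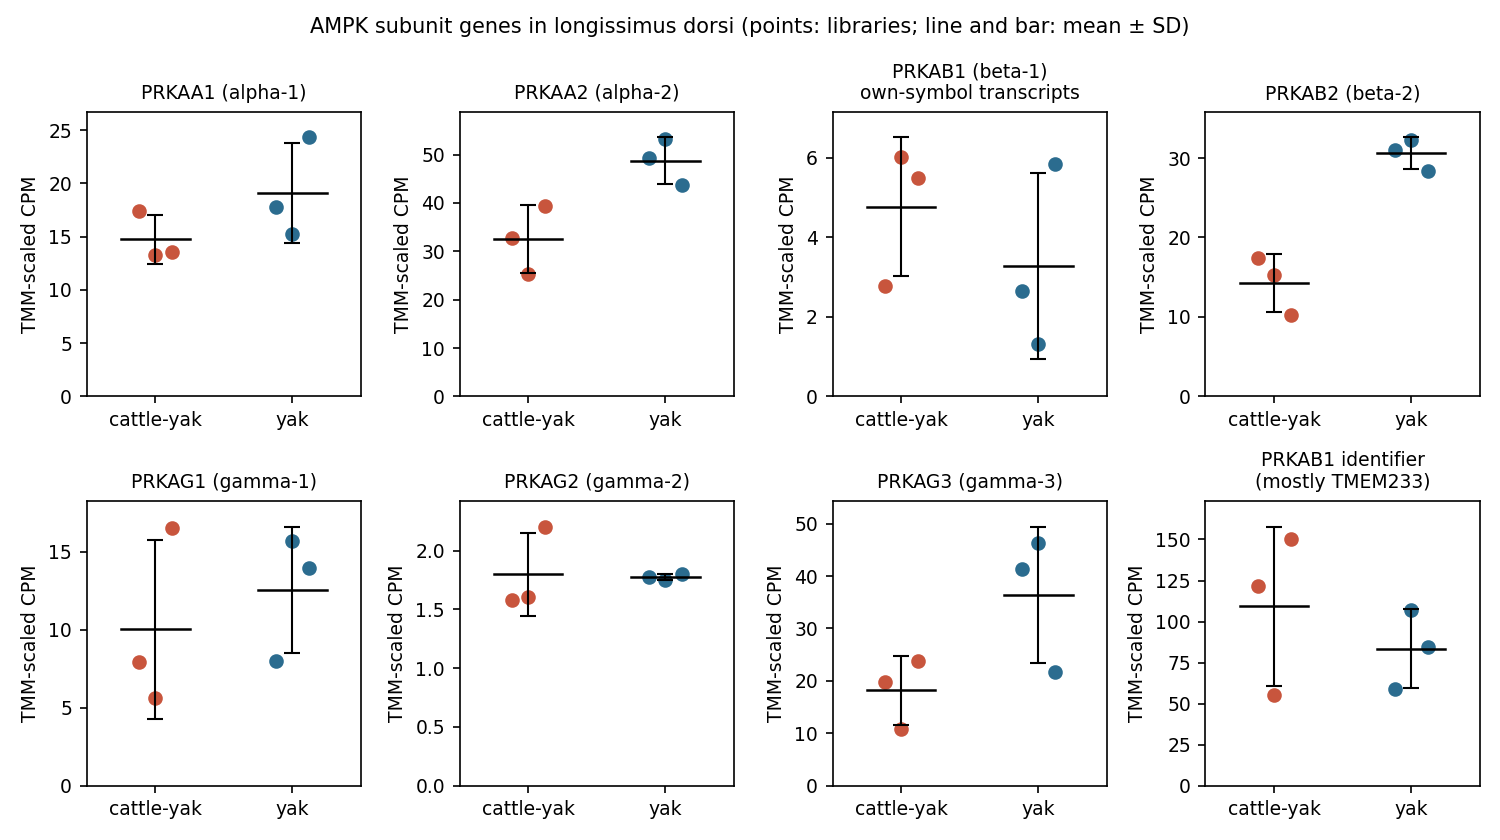
TMM-scaled CPM (y axis) of each AMPK subunit gene in the 3 cattle-yak and the 3 yak libraries, with points for libraries and a line and bar for the mean ± SD; the last panel shows the whole identifier of PRKAB1, most of whose reads carry the name TMEM233. The groups stand apart for PRKAA2 and PRKAB2, whereas for PRKAG3 the third yak library (21.6 CPM) lies under the third cattle-yak library (23.9 CPM).

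Among the catalytic subunits, alpha-2 was the more abundant in every library. PRKAA2 (ENSBGRG00000000593), which encodes alpha-2, had 83, 63 and 107 reads in cattle-yak, against 111, 122 and 97 reads in yak. After scaling this was 32.9, 25.3 and 39.3 CPM in cattle-yak, against 49.2, 53.3 and 43.7 CPM in yak. The groups did not overlap after scaling, although the count of the third cattle-yak library was above that of the third yak library. PRKAA2 averaged 32.5 ± 7.0 CPM in cattle-yak and 48.7 ± 4.81 CPM in yak (SD, n = 3 each). Its log2 fold change was -0.58 ± 0.21 (SE; 95% interval -1.03 to -0.14), with an edgeR p of 0.0142 that became 0.0825 after adjustment over all genes, so it was not called.

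PRKAA1 (ENSBGRG00000024391), which encodes alpha-1, the catalytic subunit of most non-muscle cells, was less abundant. It had 44, 33 and 37 reads in cattle-yak, against 40, 35 and 54 reads in yak. The groups overlapped, with the third yak library above all others. The means were 14.8 ± 2.31 CPM in cattle-yak and 19.1 ± 4.67 CPM in yak (SD, n = 3 each). The log2 fold change of -0.37 ± 0.27 was within the spread (adjusted p = 0.408 in edgeR; 95% interval -0.96 to 0.21).

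PRKAB2 (ENSBGRG00000010942) encodes beta-2, the scaffold of muscle AMPK. It had 44, 38 and 28 reads in cattle-yak, against 70, 74 and 63 reads in yak. The highest cattle-yak count was well under the lowest yak count. PRKAB2 fell to 14.3 ± 3.66 CPM in cattle-yak, against 30.6 ± 2.01 CPM in yak (SD, n = 3 each). The log2 fold change was -1.10 ± 0.25 (SE; 95% interval -1.63 to -0.56; adjusted p = 0.0114 in edgeR). The call held in all 17 alternative fits in which the gene could be tested, among them those without each library in turn, with log2 fold changes of -1.27 to -0.91 and adjusted p of 0.000635 to 0.0393. Taking own-symbol transcripts or all identifiers changed no PRKAB2 reads, so those fits were no separate check.

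Cell type markers were read beside this result. Summed fibroblast markers (DCN, LUM, COL1A1, COL3A1, PDGFRA) spanned 209 to 391 CPM in cattle-yak and 373 to 472 CPM in yak, and 2 of the 4 tested, LUM and COL3A1, fell. Summed macrophage markers spanned 36.0 to 83.1 CPM in cattle-yak and 14.8 to 28.4 CPM in yak, and CTSS rose, 1 of 2 tested. Nerve sheath markers summed to 223 to 309 CPM in cattle-yak and 104 to 136 CPM in yak, of which PMP22 rose and the other 2 did not pass. Endothelial markers summed to 32.1 to 65.5 CPM in cattle-yak and 28.8 to 36.4 CPM in yak (0 of 3 called), and smooth muscle markers to 75.1 to 119 CPM in cattle-yak and 88.3 to 98.3 CPM in yak (0 of 4 called). Adipocyte markers summed to 1.98 to 17.7 CPM in cattle-yak and 14.2 to 21.2 CPM in yak (0 of 1 called), with no row named ADIPOQ, PLIN1 or LEP. Of the 7 fibre markers, ACTA1, whose name rests on 1.57% of its identifier's reads, and MB fell and DES rose. The names CTSS and DES rest on 53.4% and 61.2% of their identifiers' reads. The ACTA1 call was lost on reference transcripts alone (adjusted p = 0.598 in edgeR) and without cattle-yak 1 (0.0787), yak 2 (0.0999) or yak 3 (0.0567), and the DES call without yak 2 (0.0891) or yak 3 (0.0552). The part of these markers in the PRKAB2 result was not tested.

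PRKAB1 (ENSBGRG00000016630) encodes beta-1, the beta chain of liver and many other tissues. Its identifier was led by another gene name. Of its 1420 reads, 1361 (in 8 transcripts) carried the symbol TMEM233, the protein-coding gene next to PRKAB1 in the RefSeq annotation of Bos grunniens, and 59 (4.15%, in 3 transcripts) carried PRKAB1. The PRKAB1 transcripts had 7, 15 and 15 reads in cattle-yak, against 6, 3 and 13 reads in yak. The groups overlapped at these low counts. The level was 4.77 ± 1.75 CPM in cattle-yak and 3.28 ± 2.33 CPM in yak (SD, n = 3 each), and the fitted log2 fold change was 0.54 ± 0.53 (adjusted p = 0.549 in edgeR; 95% interval -0.60 to 1.69). The whole identifier, TMEM233 reads included, had 109 ± 48.6 CPM in cattle-yak and 83.4 ± 24.01 CPM in yak, with a log2 fold change of 0.39 ± 0.36 (adjusted p = 0.539 in edgeR).

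PRKAG3 (ENSBGRG00000000724) encodes gamma-3, the nucleotide-binding chain of fast muscle. It had 50, 27 and 65 reads in cattle-yak, against 93, 106 and 48 reads in yak. Yak 1 and yak 2 were above every cattle-yak library, and yak 3 was not. The means were 18.2 ± 6.66 CPM in cattle-yak and 36.4 ± 13.0 CPM in yak (SD, n = 3 each). The log2 fold change of -1.0 ± 0.33 was about as large as that of PRKAB2 but less precise (95% interval -1.72 to -0.27), with an edgeR p of 0.0111 and an adjusted p of 0.0710. Without the third yak library the log2 fold change was -1.28 (adjusted p = 0.0228 in edgeR). Of the 6 fits that left out a library, this was the only 1 in which PRKAG3 was called. Over all 17 alternatives it was called in 2, and the adjusted p ranged from 0.00128 to 0.211.

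PRKAG1 (ENSBGRG00000001150) encodes gamma-1, the gamma chain of most tissues. It had 20, 14 and 45 reads in cattle-yak, against 18, 36 and 31 reads in yak. Both the lowest and the highest library were cattle-yak. The means were 10.02 ± 5.75 CPM in cattle-yak and 12.6 ± 4.06 CPM in yak (SD, n = 3 each), and the log2 fold change was -0.31 ± 0.40 (adjusted p = 0.659 in edgeR; 95% interval -1.19 to 0.56). PRKAG2 (ENSBGRG00000007895), which encodes gamma-2, prominent in heart, had 4, 4 and 6 reads in cattle-yak, against 4, 4 and 4 reads in yak. These few reads kept it out of the main test. The fit on transcripts with its symbol gave a log2 change of -0.19 ± 0.59 (adjusted p = 0.868 in edgeR; 95% interval -1.45 to 1.07), so a difference of the size seen for PRKAB2 was not detectable at this depth.

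**Figure D2:**
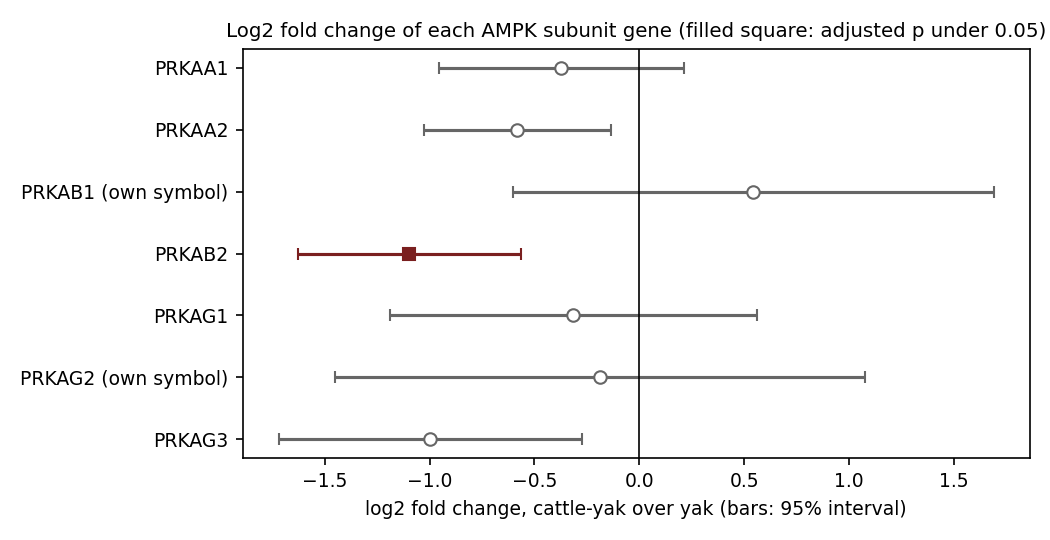
Log2 fold change of each AMPK subunit gene, cattle-yak over yak (x axis), with its 95% interval; PRKAB1 and PRKAG2 are given for transcripts with their own symbol, tested without the low count filter. PRKAB2 (-1.10) is the only filled square, and the intervals of PRKAA2 (-1.03 to -0.14) and PRKAG3 (-1.72 to -0.27) lie below 0 although their adjusted p exceeded the threshold.

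The order of the subunits by reads differed in part between the groups. In cattle-yak, PRKAA2 stood above the other 6, since its lowest library (25.3 CPM) exceeded the highest PRKAG3 library (23.9 CPM). PRKAG3, PRKAA1, PRKAB2, PRKAG1 and PRKAB1 followed, each with a range that overlapped the next, and PRKAG2 was lowest. In yak, PRKAA2 (lowest library 43.7 CPM) stood above PRKAB2 (highest 32.3 CPM), and PRKAG3 spanned 21.2 to 45.4 CPM, overlapping PRKAA2, PRKAB2 and PRKAA1. PRKAA1 and PRKAG1 followed with overlapping ranges, and PRKAB1 and PRKAG2 came last, also with overlap. PRKAB2 thus stood above PRKAA1 in yak (lowest PRKAB2 library 28.4 CPM, highest PRKAA1 library 24.3 CPM) and not in cattle-yak, where their means were 14.3 and 14.5 CPM by transcripts with their own symbol.

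The isoform make-up of each chain was then expressed as a share of reads, which does not depend on scaling. Alpha-2 made up 65.4%, 65.6% and 74.3% of the alpha reads in cattle-yak, against 73.5%, 77.7% and 64.2% in yak. The groups overlapped, and the means of 68.4% ± 5.09 in cattle-yak and 71.8% ± 6.89 in yak differed by -3.39 points (SD, n = 3 each; two-sided exact permutation p = 0.7). With 3 libraries against 3, the smallest p this test can give is 0.1.

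Beta-2 made up 86.3%, 71.7% and 65.1% of the beta reads in cattle-yak, against 92.1%, 96.1% and 82.9% in yak, counted over transcripts with their own symbol. Yak 3 lay below cattle-yak 1 and above the other 2. The means were 74.4% ± 10.8 in cattle-yak and 90.4% ± 6.77 in yak, a difference of -16.0 points (SD, n = 3 each; exact permutation p = 0.2). Wilson 95% intervals, which cover counting error only, ran from 50.2% to 77.6% in the lowest library, cattle-yak 3, and from 89.2% to 98.7% in the highest, yak 2. Over whole identifiers, where the PRKAB1 side is mostly TMEM233, the share was 13.5% ± 7.64 in cattle-yak and 27.6% ± 6.02 in yak (exact permutation p = 0.1, the smallest possible). Over reference transcripts alone, with 11 to 22 beta reads a library, it was 34.4% ± 18.4 in cattle-yak and 56.9% ± 23.8 in yak (exact permutation p = 0.4), under 50% in cattle-yak 2, cattle-yak 3, yak 1 and yak 3.

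Gamma-3 made up 67.6%, 60% and 56.0% of the gamma reads in cattle-yak, against 80.9%, 72.6% and 57.8% in yak. As for its level, yak 3 fell among the cattle-yak libraries. The means were 61.2% ± 5.86 in cattle-yak and 70.4% ± 11.7 in yak, a difference of -9.23 points (SD, n = 3 each; exact permutation p = 0.3). Gamma-1 took most of the remainder, 32.3% ± 5.97 in cattle-yak and 25.9% ± 10.9 in yak (difference 6.42 points, exact permutation p = 0.4). Gamma-2 was 6.49% ± 2.08 of gamma reads in cattle-yak and 3.68% ± 1.05 in yak, with no overlap (exact permutation p = 0.1), although its own reads were nearly equal in the 2 groups. By transcripts that carried the symbol, the gamma-2 groups overlapped (difference 2.20 points, exact permutation p = 0.3).

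**Figure D3:**
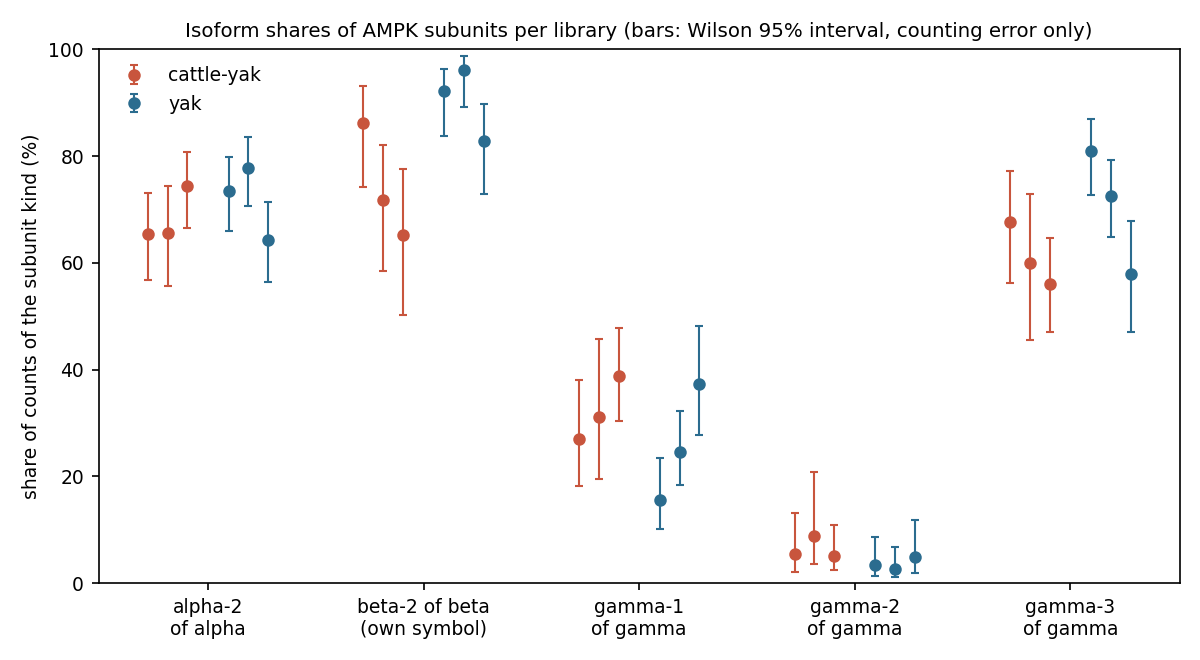
Share of reads (y axis, percent) that alpha-2 took of the alpha chains, beta-2 of the beta chains and each gamma isoform of the gamma chains, 1 point for each cattle-yak and yak library, with Wilson 95% intervals that cover counting error only. Alpha-2 and gamma-3 led in all 6 libraries, as did beta-2 over transcripts with their own symbol, where its lowest share (65.1%) was in a cattle-yak library.

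Ratios between chains were taken within each library. PRKAB2 reads over PRKAA2 reads were 0.530, 0.603 and 0.262 in cattle-yak, against 0.631, 0.607 and 0.649 in yak. The groups did not overlap, but the highest cattle-yak value lay just under the lowest yak value (exact permutation p = 0.1 on log2 ratios). PRKAG3 over PRKAA2 was 0.546 ± 0.102 in cattle-yak and 0.734 ± 0.208 in yak (SD, n = 3 each; exact permutation p = 0.3), with overlap. PRKAG3 over PRKAG1 was 1.96 ± 0.528 in cattle-yak and 3.22 ± 1.82 in yak (exact permutation p = 0.4), again with overlap.

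Long reads also separate the transcripts of a gene. Of the 95 transcripts of the 7 identifiers, 10 passed the filter, and 3 fell by edgeR's test over all transcripts, against a background of 8.86% of 15804 tested transcripts that fell. These were the main transcripts of PRKAA2, PRKAB2 and PRKAG3. That of PRKAG3, the only 1 of its 36 transcripts tested, passed the filter through its yak libraries alone. Its entry to the test thus depended on the group where it was higher. Transcript levels are on the scaling of the transcript fit, which differs slightly from that of the genes. Genes, transcripts and shares draw on the same reads and are not independent of each other.

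For PRKAA2, the reference transcript ENSBGRT00000001054 held 64.0% of the reads. It had 51, 32 and 57 reads in cattle-yak, against 79, 85 and 69 reads in yak. It fell to 19.8 ± 4.64 CPM in cattle-yak, against 37.5 ± 3.50 CPM in yak (SD, n = 3 each; fitted log2 change -0.92 ± 0.25, adjusted p = 0.0220 in edgeR). The next 2 transcripts, both assembled from the reads, did not pass, with log2 fold changes of 0.04 (TALONT001189421) and 0.35 (TALONT001189282).

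The reference transcript took 61.4%, 50.8% and 53.3% of PRKAA2 reads in cattle-yak, against 71.2%, 69.7% and 71.1% in yak. The shares did not overlap and averaged 55.2% ± 5.57 in cattle-yak and 70.7% ± 0.855 in yak, a difference of -15.5 points (exact permutation p = 0.1). The 11 assembled transcripts of PRKAA2 together had 14.5 ± 3.35 CPM in cattle-yak and 14.3 ± 1.78 CPM in yak, and a gene fit on assembled transcripts alone gave a log2 change of -0.02 (adjusted p = 0.980 in edgeR). The usage test of edgeR, which asks whether transcripts of a gene change unequally, did not call PRKAA2 (adjusted p = 0.189 in edgeR, 0.0395 before adjustment). It called 0 of the 3 subunit identifiers it could test, and 1 (PRKAA2) was under an unadjusted p of 0.05. The Simes method also called 0 of them. Over all genes the F test called 8.29% of 1821. An isoform change and an allele assembled as its own transcript cannot be told apart here.

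For PRKAB2, the assembled transcript TALONT000825645 held 49.5% of the reads. It carries the symbol PRKAB2, but its deposited description names only a partial hypothetical protein of Sousa chinensis. It had 14, 22 and 15 reads in cattle-yak, against 40, 31 and 35 reads in yak. It fell to 7.35 ± 2.26 CPM in cattle-yak, against 17.1 ± 2.49 CPM in yak (SD, n = 3 each; fitted log2 change -1.22 ± 0.33, adjusted p = 0.0186 in edgeR). The second, TALONT000825648, had a similar but uncertain log2 change of -1.11 (adjusted p = 0.183 in edgeR). The reference transcript ENSBGRT00000019996 had 8, 3 and 6 reads in cattle-yak, against 5, 16 and 9 reads in yak, too few to test. TALONT000825642 (7.26% of the reads) had 4, 4 and 2 in cattle-yak, against 5, 4 and 4 in yak, and TALONT000825676 (5.68%) had 4, 2 and 1 in cattle-yak, against 3, 5 and 3 in yak. These were also not tested. TALONT000825676 and TALONT000825740 carry the symbol PRKAB2, but their deposited descriptions name FMO5, the protein-coding gene next to PRKAB2 in the RefSeq annotation. The share of PRKAB2 reads in the reference transcript was 15.8% ± 7.07 in cattle-yak and 14.4% ± 7.24 in yak (exact permutation p = 0.8).

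PRKAG3 was the most divided of the 7, with 36 transcripts, all assembled and none with a reference identifier, of which 5 held at least 5% of the reads. The leading one, TALONT000530719, held 21.1% and is described in the deposited table as an isoform of the Bos taurus gamma-3 subunit. It had 9, 6 and 11 reads in cattle-yak, against 19, 22 and 15 reads in yak. It fell to 3.68 ± 0.875 CPM in cattle-yak, against 9.01 ± 1.58 CPM in yak (SD, n = 3 each; fitted log2 change -1.27 ± 0.38, adjusted p = 0.0299 in edgeR). For this transcript, unlike the gene, yak 3 stayed above all cattle-yak libraries. The next 4 had at most 25 reads each over the 3 yak libraries and were not tested. Among them TALONT000530722 had 6, 4 and 5 reads in cattle-yak, against 9, 10 and 6 reads in yak, and TALONT000531338 had 2, 0 and 6 reads in cattle-yak, against 13, 4 and 7 reads in yak. TALONT000530725 had 7, 4 and 6 reads in cattle-yak, against 9, 7 and 6 reads in yak, and TALONT000530726 had 5, 0 and 1 in cattle-yak, against 5, 6 and 4 in yak.

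The deposited descriptions name the species whose protein each assembled transcript matched. For PRKAG3, transcripts matched to Bos mutus, the wild yak, took 45.4% ± 13.0 of the reads in cattle-yak and 43.0% ± 3.01 in yak. Transcripts matched to Bos taurus took 29.8% ± 4.97 in cattle-yak and 33.2% ± 2.12 in yak (SD, n = 3 each). For both species the libraries of the 2 groups overlapped. The difference was not tested, and the descriptions are no measure of parental allele.

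The calls on single transcripts rested on few reads. Without the first yak library, 0 of the 3 was called. The PRKAA2 transcript also lost its call without cattle-yak 2 or yak 2 and with scaling to library size alone. The PRKAB2 transcript lost it without cattle-yak 1 or cattle-yak 3. The PRKAG3 transcript kept it without cattle-yak 3 or yak 3 and lost it without each of the others, with no filter on low counts and with scaling to library size alone. Without cattle-yak 2, a TMEM233 transcript of the PRKAB1 identifier, TALONT000543655, was called higher (log2 fold change 1.35, adjusted p = 0.0404 in edgeR).

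**Figure D4:**
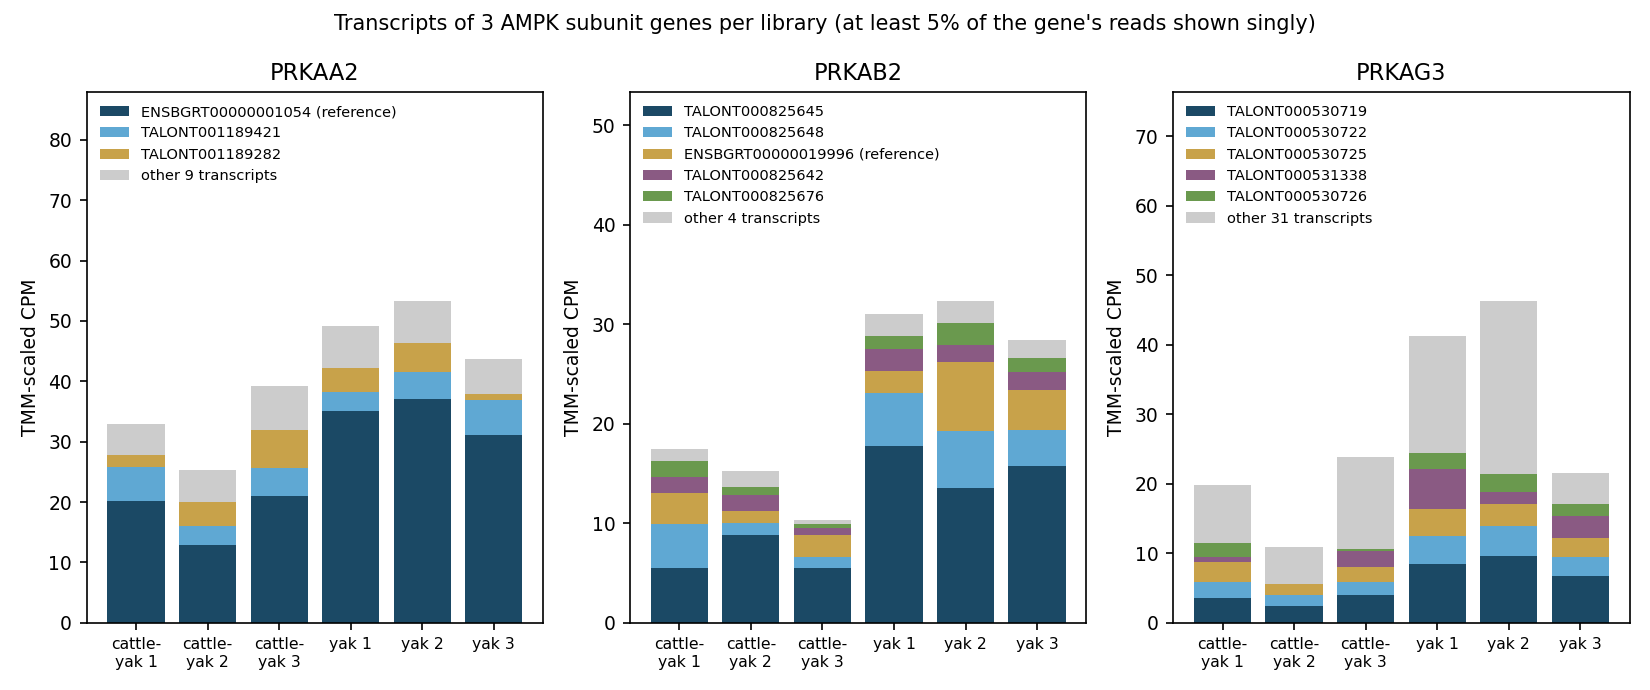
Stacked TMM-scaled CPM (y axis) of the transcripts of PRKAA2, PRKAB2 and PRKAG3 in each cattle-yak and yak library, on the scaling of the gene fit, with transcripts holding at least 5% of the gene's reads in colour and the rest in grey. The dark segment at the base, the leading transcript of each gene, is shorter in each of the 3 cattle-yak columns than in any yak column, and the other 31 transcripts of PRKAG3 make up much of its total.

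Other transcripts with at least 5% of their gene had fewer reads. The reference transcript of PRKAA1, ENSBGRT00000045087, held 30.5% of its reads and had a fitted log2 change of -0.49 (adjusted p = 0.405 in edgeR). Of its assembled transcripts, none tested, TALONT000505945 (18.5%) had 16 reads in cattle-yak and 29 in yak over 3 libraries each, and TALONT000506127 (17.7%) had 20 in cattle-yak and 23 in yak. TALONT000506249, TALONT000505952 and TALONT000506157 (5.35% to 6.58%) each had 7 reads in cattle-yak, and 9, 7 and 6 in yak. In PRKAA1 the assembled reads were thus spread over many transcripts. That of PRKAG1, ENSBGRT00000002119, held 49.4% of the reads with a log2 fold change of -0.22 (adjusted p = 0.793 in edgeR). TALONT001318972 (36.6%) had 28 reads in cattle-yak and 32 in yak, and TALONT001318977 (5.49%) had 4 in cattle-yak and 5 in yak, neither tested. In PRKAG2, none of TALONT000708290, TALONT000708255, TALONT000708260, TALONT000708277 and TALONT000708415 had more than 9 reads over all libraries. Within the PRKAB1 identifier, the TMEM233 transcript TALONT000543641 alone held 85.2% of the reads, with a log2 fold change of 0.36 (adjusted p = 0.580 in edgeR).

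Genes that act on or below AMPK were read from 8 lists. Counting each gene once, 55 passed the filter, 9 rose and 9 fell, so 32.7% were called against the background of 12.6%. The lists were chosen with earlier results of these data known, so this share cannot be read as an enrichment. Of those that rose, STK11, KLC1, AMPD3 and HK2 lacked enough reads in every yak library to pass the filter by that group. Their entry to the test thus depended on the group where they were higher. The median log2 fold change over all tested genes was 0.02, to be set beside the median of each list.

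Of the 9 upstream kinases and their partners, 4 were tested, 1 rose and 0 fell (median log2 fold change 0.48). STK11, the kinase LKB1 that phosphorylates the alpha chain, had 14.6, 12.9 and 8.08 CPM in cattle-yak, against 5.32, 5.68 and 4.50 CPM in yak. It rose by a log2 fold change of 1.19 ± 0.34 (adjusted p = 0.0381 in edgeR). That call was lost without any library other than cattle-yak 3 (adjusted p 0.0878 to 0.134), with DESeq2 (0.1004), limma-voom (0.0653) and no low count filter (0.0995). STRADB and CAB39, partners in the LKB1 complex, had log2 fold changes of 0.41 and 0.55, and MAP3K7, the kinase TAK1, -1.01, none called.

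Of 12 energy and nutrient sensing partners, 7 were tested, 1 rose and 0 fell (median 0.04). SESN1, a sestrin that binds AMPK and restrains mTORC1, rose to 59.8 ± 3.14 CPM in cattle-yak, against 12.4 ± 2.88 CPM in yak (SD, n = 3 each; fitted log2 change 2.26 ± 0.22, adjusted p = 4.7e-05 in edgeR). The Ragulator subunits LAMTOR5, LAMTOR2 and LAMTOR4, parts of the lysosomal platform on which AMPK can be activated, had log2 fold changes of 0.27, -0.30 and 0.04 and were not called. The name LAMTOR5 rests on 8.72% of its identifier's reads.

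Of 23 names of direct substrates, among which RPTOR and RAPTOR are the same gene and had no row, 10 were tested, 3 rose and 0 fell (median 0.13). ACACB, the acetyl-CoA carboxylase that AMPK inhibits to open fatty acid oxidation in muscle, rose to 44.7 ± 17.4 CPM in cattle-yak, against 8.15 ± 1.92 CPM in yak (SD, n = 3 each; fitted log2 change 2.45 ± 0.33, adjusted p = 0.000584 in edgeR). FOXO3, a transcription factor of muscle protein breakdown, rose by 1.33 ± 0.33 (adjusted p = 0.0190 in edgeR), and the call was lost without yak 1 (0.0739) or yak 3 (0.0838). KLC1, a kinesin light chain, rose by 1.34 ± 0.38 (adjusted p = 0.0335 in edgeR). Its name rests on 14.9% of its reads, and its call was lost without any library but cattle-yak 3 and with DESeq2, limma-voom or no filter (adjusted p up to 0.129). KLC1 passed the low count filter through its cattle-yak libraries alone. PFKFB3, GYS1 and MFF had log2 fold changes of 0.10, 0.11 and -0.27 and were not called, and the name PFKFB3 rests on 12.2% of its reads.

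Of 14 AMPK-related kinases, most of which LKB1 also activates, only SIK3 was tested, and it rose to 18.1 ± 2.14 CPM in cattle-yak, against 7.53 ± 1.08 CPM in yak (SD, n = 3 each; fitted log2 change 1.26 ± 0.28, adjusted p = 0.0109 in edgeR). Its name rests on 56.8% of its identifier's reads, and the call was lost without yak 1 (0.0508) or yak 3 (0.0527).

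Of 19 genes of the glycogen store, which the beta chain binds, 16 were tested, 5 fell and 0 rose (median -0.43). STBD1, a glycogen-binding protein, fell to 63.6 ± 15.8 CPM in cattle-yak, against 356 ± 62.4 CPM in yak (SD, n = 3 each; fitted log2 change -2.48 ± 0.21, adjusted p = 1.4e-05 in edgeR). Glycogen-targeting subunits of protein phosphatase 1, which bring the phosphatase to glycogen synthase, fell with it. PPP1R3C fell to 44.3 ± 20.4 CPM in cattle-yak, against 193 ± 28.4 CPM in yak, and PPP1R3A, the muscle form, to 236 ± 68.7 CPM in cattle-yak, against 581 ± 22.4 CPM in yak. PPP1R3B fell by 1.24 ± 0.31 on the log2 scale (adjusted p = 0.0189 in edgeR), and the call was lost without cattle-yak 3 (0.0579) or yak 2 (0.0768). PHKB, the beta subunit of phosphorylase kinase, fell to 69.8 ± 11.4 CPM in cattle-yak, against 127 ± 13.5 CPM in yak. The most abundant members, PYGM and PGM1, had log2 fold changes of -0.46 and -0.40 and were not called.

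Of 13 genes of adenylate and phosphocreatine balance, which sets the nucleotides that the gamma chain reads, 12 were tested, 1 rose and 3 fell (median -0.37). AMPD1, the AMP deaminase of skeletal muscle, fell to 137 ± 46.8 CPM in cattle-yak, against 371 ± 13.0 CPM in yak (SD, n = 3 each; fitted log2 change -1.44 ± 0.21, adjusted p = 0.00106 in edgeR). AMPD3, another AMP deaminase, rose to 30.01 ± 9.15 CPM in cattle-yak, against 3.55 ± 0.0549 CPM in yak (log2 fold change 3.06 ± 0.34), and its name rests on 5.12% of its reads. AMPD3 passed the low count filter through its cattle-yak libraries alone. ADSS1, which catalyses a step from IMP back to AMP in muscle, fell by 0.93 ± 0.18 on the log2 scale (adjusted p = 0.00540 in edgeR), a call lost on assembled transcripts alone (0.146). AK3, a mitochondrial adenylate kinase, fell by 0.76 ± 0.21 (adjusted p = 0.0298 in edgeR), a call lost in 8 alternatives, among them those without cattle-yak 2, cattle-yak 3, yak 1 or yak 3 (adjusted p up to 0.431). CKM, AK1 and CKMT2, the most abundant, had log2 fold changes of -0.28, -0.37 and 0.01 and were not called.

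Of 6 genes of glucose and fatty acid entry, 4 were tested, 2 rose and 0 fell (median 0.70). HK2, the hexokinase of muscle, rose to 16.7 ± 5.57 CPM in cattle-yak, against 5.20 ± 2.91 CPM in yak (SD, n = 3 each; fitted log2 change 1.67 ± 0.40, adjusted p = 0.0154 in edgeR), and the call was lost without cattle-yak 2, yak 1 or yak 2 (0.0517 to 0.0710). CD36, a fatty acid transporter, rose to 113 ± 7.77 CPM in cattle-yak, against 67.6 ± 2.43 CPM in yak (log2 fold change 0.74 ± 0.16, adjusted p = 0.00912 in edgeR), a call lost with no low count filter (0.0631). SLC2A4, the insulin-responsive glucose transporter, had a log2 fold change of -0.21 and CPT1B, the mitochondrial gate for fatty acids, 0.67, neither called.

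Because gamma-3 is tied to fast fibres, the myosin heavy chains were read beside it. Of 4 listed names, MYH1, MYH2 and MYH4, the fast myosins, shared 1 identifier, so 2 identifiers were tested, of which 0 rose and 1 fell (median -0.28). The fast identifier, 53.8% of whose reads carry MYH2, fell to 16974 ± 1180 CPM in cattle-yak, against 26780 ± 2273 CPM in yak (SD, n = 3 each; fitted log2 change -0.66 ± 0.15, adjusted p = 0.0135 in edgeR), and the call was lost without yak 2 (0.0697). The identifier of MYH7, the slow myosin, whose name rests on 44.3% of its reads, had a log2 change of 0.11 (adjusted p = 0.744 in edgeR). The fast myosins were not separated here. The part of fibre type in the levels of PRKAG3 was not tested.

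**Figure D5:**
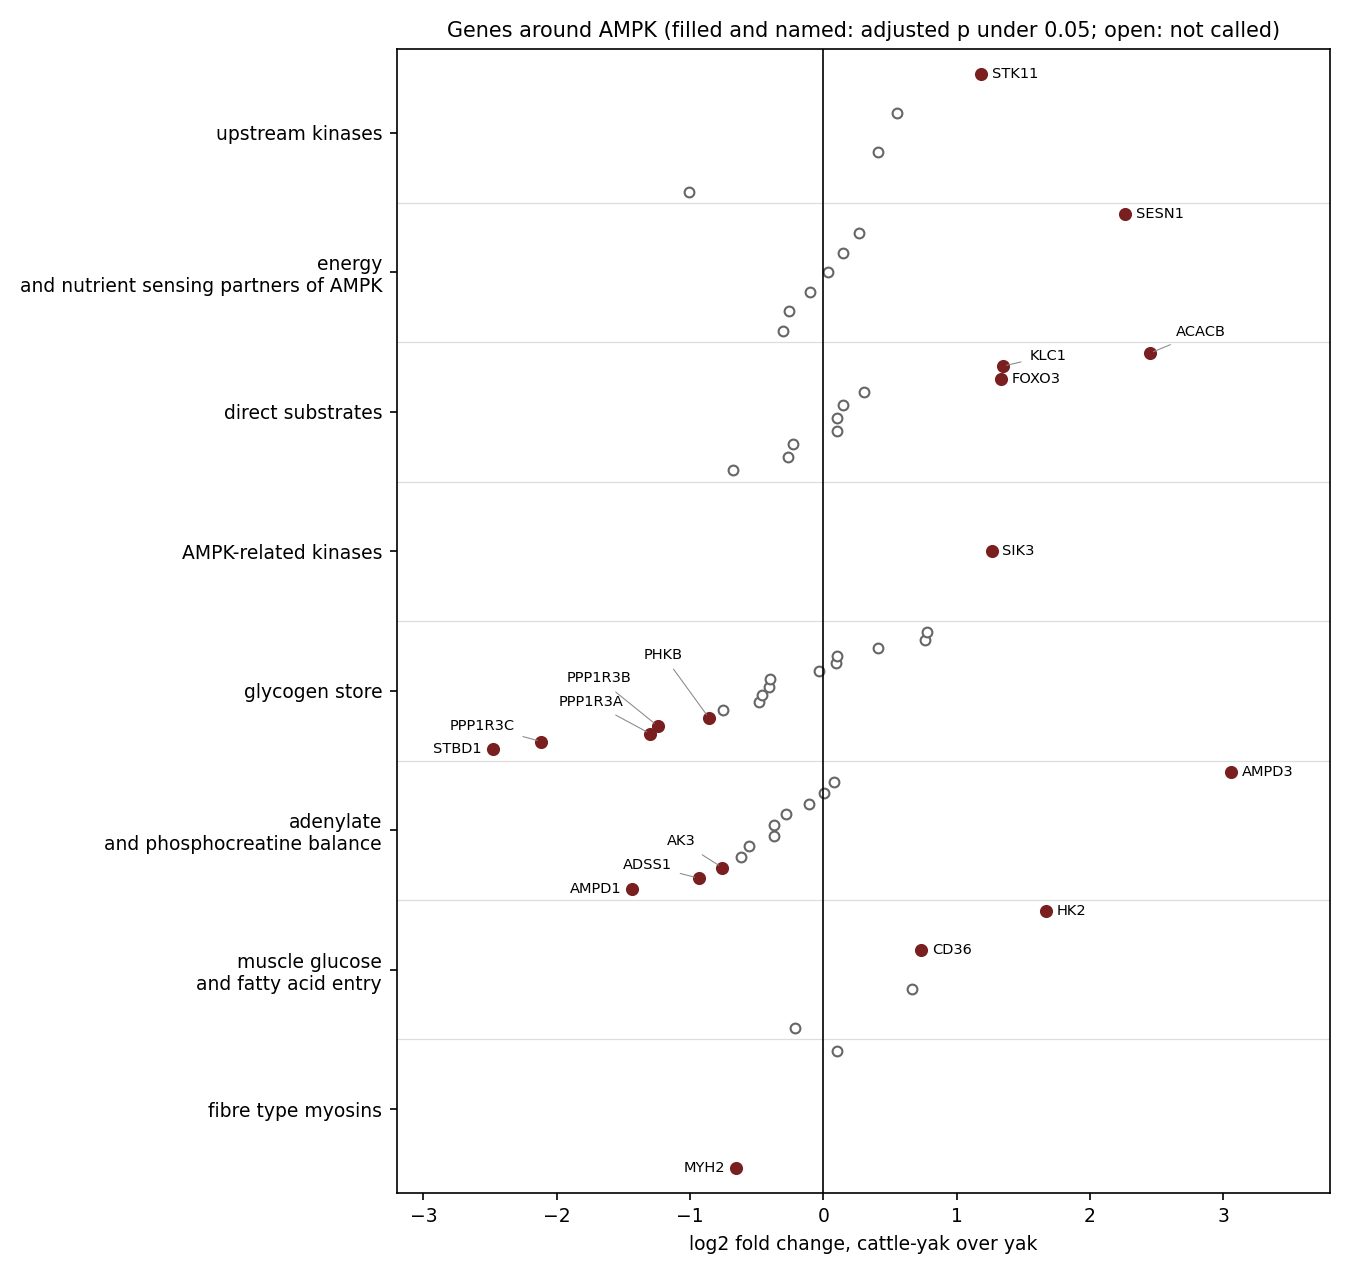
Log2 fold change, cattle-yak over yak (x axis), of each tested gene in the 8 lists around AMPK (rows), filled and named where the edgeR adjusted p was under 0.05 and open otherwise; MYH2 marks the identifier that the fast myosins share. The 5 called genes of the glycogen store lie left of 0, down to STBD1 (-2.48), while the called kinases, substrates and entry genes lie right of 0, up to ACACB (2.45).

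The genes whose levels followed PRKAG3 most closely over the 6 libraries, among 3649 tested genes of at least 10 CPM, were ZSCAN21 (Pearson r 0.99), CIAO1 (0.98), GNAI3 (0.98), TM9SF4 (0.97) and FASTKD2 (0.97), on log2 CPM. None of these 5 was called between the groups. PRKAA2, the other member with the most reads of its own, was followed most closely by MRPS7, PSTPIP2, MAPRE1, ANAPC16 and TYW5 (r 0.98 to 0.99), of which 0 was called. Between the members, PRKAA2 and PRKAG3 had the highest r of the tested pairs (0.95), both being low in cattle-yak 2 and high in yak 2. These r describe 6 libraries that fall into 2 groups, carry no p, and share the scaling of each library.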

How the data were processed

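Full-length cDNA of longissimus dorsi was measured in 3 cattle-yak and 3 yak samples. Per the file headers, the table the authors deposited gives a whole-number count of reads for each transcript and library, and also CPM, which matched counts over library totals within 0.005 in every library. Per the submitters' processing notes, fastp, minimap2 and GSNAP were used. The sources used here give neither their versions and roles nor the genome build and counting software.

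Counts of 179856 transcripts were summed by gene identifier. Left out were 132 lines of annotation text without values and 61 transcripts without an identifier, at most 0.00249% of a library. Tests on genes and on transcripts were run in R 4.3.3 with edgeR 4.0.16 (TMM, filterByExpr, robust quasi-likelihood test, group as the only term, Benjamini-Hochberg over the whole table, threshold 0.05), and usage with diffSpliceDGE on transcripts with at least 5% of their gene's reads. The SE is the log2 fold change over the root of F, and 95% intervals use the t distribution. Shares were compared with exact permutation tests. PCR copies of a molecule cannot be recognised without molecular identifiers, so Wilson intervals cover counting error only. Log2 CPM for r used a prior count of 2. The tests were checked on simulated counts. Alternatives were DESeq2 1.42.0, limma-voom (limma 3.58.1), other scalings and filters, other choices of transcripts, a replicate block, and each library left out. Same-numbered libraries did not deviate together (r -0.04, -0.02 and 0.02), so they were not paired. Tables and figures used Python 3.11.15, pandas 2.3.3, SciPy 1.17.1 and matplotlib 3.10.9.

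The rule named the 7 members, their transcripts over 5%, every called gene of the 8 lists with up to 3 of the most abundant uncalled ones, and the 5 genes most like PRKAG3 and one other member. Of these, 1 gene is not reported here. Members and lists were chosen with earlier results of these data known. Fits on transcripts with their own symbol, or on assembled ones alone, were added after the data were seen.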

Additional observations from a re-analysis of the deposited data

Results flagged for a closer look

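A second identifier, TALONG000120568, also carried the symbol PRKAA2 and lay outside the gene counted as PRKAA2. Its 1 transcript held 22 reads, with 2, 5 and 3 in cattle-yak and 4, 4 and 4 in yak. Except in cattle-yak 1 and cattle-yak 3, these were above the 3 reads that a count of 0 allows. Groups of 3 libraries are too small for the test of outlying samples.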

How the results depend on the processing

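Over the alternatives, the log2 fold changes of the 6 tested members kept their direction in all 106 fits, and 104 kept their side of the threshold. The other 2 were PRKAG3, called with no low count filter (-1.10, adjusted p = 0.00128) and without yak 3 (-1.28, adjusted p = 0.0228). The number of subunit genes called was 1 and became 2 in those fits, and 0 on reference transcripts alone, where PRKAB2 could not be tested. Leaving out each library gave 1 to 2. Taking own-symbol transcripts or all identifiers changed no reads of PRKAB2 or PRKAG1, so for these genes those fits were no separate check. Over all genes, 948 calls became 194 on reference transcripts alone, where 1643 genes were tested, and 544 to 997 on leaving out each library. The 3 called transcripts became 1 with library size alone and 0 to 3 on leaving out each library. No subunit gene had a called usage change in any alternative, and 1 had an unadjusted p under 0.05. With the replicate block, 1 gene (PRKAB2, log2 fold change -1.11) and 2 transcripts (those of PRKAA2 and PRKAB2) were called. On leaving out each library, uncalled log2 fold changes spanned -0.53 to -0.18 for PRKAA1, 0.08 to 0.71 for the PRKAB1 identifier and -0.89 (without cattle-yak 3) to -0.03 (without cattle-yak 2) for PRKAG1. Share differences kept their sign, spanning -7.18 to -0.45 points for alpha-2, -18.2 to -10.6 for beta-2 by identifier, 1.31 (without yak 1) to 12.2 (without yak 3) for gamma-1, 1.61 to 3.47 for gamma-2, and -15.5 to -4.02 for gamma-3. Library size alone moved the median of all genes to 0.18 on the log2 scale, beside which PRKAB2 stood at -0.93. No filter moved it to 0.24. The causes were not tested. Counts of at most 15 reads a library limit PRKAG2, PRKAB1 and most single transcripts.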

Other observations

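The deposited table assigns KEGG pathways to transcripts, and identifiers with the term for AMPK signaling form a second list, chosen after the data were seen and sharing genes with the lists above. Of its 58 tested identifiers, 11 rose and 2 fell, so 22.4% were called against 12.6% of all tested genes, and their median log2 fold change was 0.04. The 2 that fell were PRKAB2 and IRS1, the insulin receptor substrate, which had 7.35 ± 1.95 CPM in cattle-yak and 19.8 ± 3.95 CPM in yak (SD, n = 3 each; fitted log2 change -1.42 ± 0.31, adjusted p = 0.00878 in edgeR). Among those that rose were FOXO1, a transcription factor of fasting muscle (38.9 ± 12.5 CPM in cattle-yak and 8.33 ± 6.61 CPM in yak, log2 change 2.22 ± 0.49), and PFKFB4, which makes the activator of phosphofructokinase (63.2 ± 14.8 CPM in cattle-yak and 21.7 ± 2.08 CPM in yak). EIF4EBP1, a brake on translation under mTORC1, rose by 1.12 ± 0.21 on the log2 scale, and ADIPOR2, an adiponectin receptor, by 1.17 ± 0.23. An identifier named IGF1R rose by 1.97 ± 0.43. ELAVL1, whose name rests on 12.1% of its reads, rose by 1.43 ± 0.44, close to the threshold (adjusted p = 0.0491 in edgeR). IGF1R and ELAVL1 passed the low count filter through their cattle-yak libraries alone, and FOXO1 lacked enough reads in every yak library to pass by that group. Their entry to the test thus depended on the group where they were higher. The KEGG term was given by the submitters' annotation, and the calls of IRS1, FOXO1, PFKFB4, EIF4EBP1, ADIPOR2, IGF1R and ELAVL1 were not read under other settings.

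The genes closest to PRKAB2 over the 6 libraries, named outside the rule and after their values were seen, were PAICS, POL, PCYOX1, RAB6A and UBE2E1 (Pearson r 0.987 to 0.995 on log2 CPM). The name UBE2E1 rests on 10.7% of its reads. PAICS, an enzyme of purine synthesis, had a log2 change of -0.75 (adjusted p = 0.0206 in edgeR) and PCYOX1, a prenylcysteine oxidase, -1.14 (adjusted p = 0.00193 in edgeR). POL had -0.65 (adjusted p = 0.0173 in edgeR). RAB6A (-0.60, adjusted p = 0.0598 in edgeR) and UBE2E1 (-0.56, adjusted p = 0.0736 in edgeR) were not called. Genes picked for following PRKAB2, whose groups did not overlap, share its group difference by that choice, so these values are no separate support.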
